A study of Rattus norvegicus with 20 samples.

Results

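MiR-499, a miRNA of striated muscle, was followed across the 20 one-colour miRNA arrays of a rat study of sciatic nerve injury. It was taken as the 1 array entry named rno-miR-499 out of 350 rat miRNAs, of which 348 carried the same name in every scanner file. The study set 10 arrays of soleus muscle beside 10 arrays of the L4-L6 dorsal root ganglia (DRGs), all from male Sprague-Dawley rats. In each tissue, 3 arrays came from denervation, in which the sciatic nerve was cut and a segment removed 6 months before. A further 3 arrays came from entrapment, in which a silastic tube had enclosed the nerve without constricting it for 6 months. The last injury group, decompression, held 3 arrays from rats whose tube was taken off after 6 months and which were followed for 3 more months. Sham control was 1 array per tissue, so the spread among sham animals is not measured in either tissue. By the methods of the study, tissue of 3 rats of every group, sham included, went into the arrays. The labels do not tie an array to a rat, and whether the sham array is a pool is not stated in the sources used here. Nor do they say that equal numbers in both tissues mark 1 rat, and p-values measure the spread between these arrays, which may in part be technical.

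MiR-499 belongs to the myomiRs, miRNAs made mainly in heart and skeletal muscle. Its hairpin lies in an intron of Myh7b, a slow-type myosin heavy chain gene, and is cut from the transcript of that gene. In mice, miR-499 and its relative miR-208b are known to favour the slow-fibre gene programme, in part by repressing Sox6, a repressor of slow-fibre genes. The rat soleus is a muscle built mostly of slow fibres, and slow muscle depends on its motor nerve to keep that type, which is the background against which its level after nerve injury is of interest. The DRGs hold sensory neurons and their glia, a tissue in which no striated muscle fibre is expected.

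The mature strands are shown with those of the miR-208 family because the seed, the stretch of bases 2 to 8 that pairs with target mRNAs, nearly coincides in these miRNAs. Sequences are those of RefSeq (GRCr8), printed 5′ to 3′ with the seed in capitals.
rno-miR-499-5p: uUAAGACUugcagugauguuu
rno-miR-499-3p: aACAUCACagcaagucugugcu
rno-miR-208a-3p: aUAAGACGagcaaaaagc
rno-miR-208b-3p: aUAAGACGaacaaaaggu
The seed of miR-499-5p shares 6 of 7 bases with the seed of miR-208a-3p and miR-208b-3p. Among 693 mature names in the RefSeq table, 1 carries the miR-499-5p seed. The array name carries no arm, and the scanner files hold no probe sequence, so the arm measured is not known from the files. By the convention of the time, a name without an arm stood for the main strand, here the 5p strand.

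The 65-base hairpin lies on chr3:164570612-164570676, plus strand, within Myh7b (chr3:164537211-164582441), and starts 33401 bases after the start of that gene. It is shown with the 5p strand in capitals.
Mir499a: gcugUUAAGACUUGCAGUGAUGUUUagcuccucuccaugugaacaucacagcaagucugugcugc

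The scanner software gave each miRNA 1 total signal in arbitrary units, an error of that signal and a call of detected or not. In the soleus muscle of the sham control, miR-499 read 1.26 ± 2.23 (signal ± reported error) and was called not detected. In denervation the 3 signals were 42.4 ± 4.40, 138 ± 11.0 and 126 ± 26.5. Entrapment gave 8.58 ± 1.12, 40.7 ± 3.18 and 10.8 ± 1.03, and decompression gave 23.5 ± 1.85, 193 ± 15.3 and 3.36 ± 0.867. All 9 injury arrays were called detected, and all 9 signals stood above the sham signal before arrays were scaled. Decompression spanned the signals of both other injury groups, with 1 array above every denervation array and 1 below every entrapment array.

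In the DRGs, miR-499 was called detected on all 10 arrays and varied little. Sham control read 16.04 ± 2.65. The signals of denervation were 31.8, 27.7 and 24.3, those of entrapment 11, 17.9 and 22.8, and those of decompression 10.9, 20.8 and 13.5. All 3 denervation signals lay above sham, whereas entrapment and decompression lay on both sides of it.

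**Figure D1:**
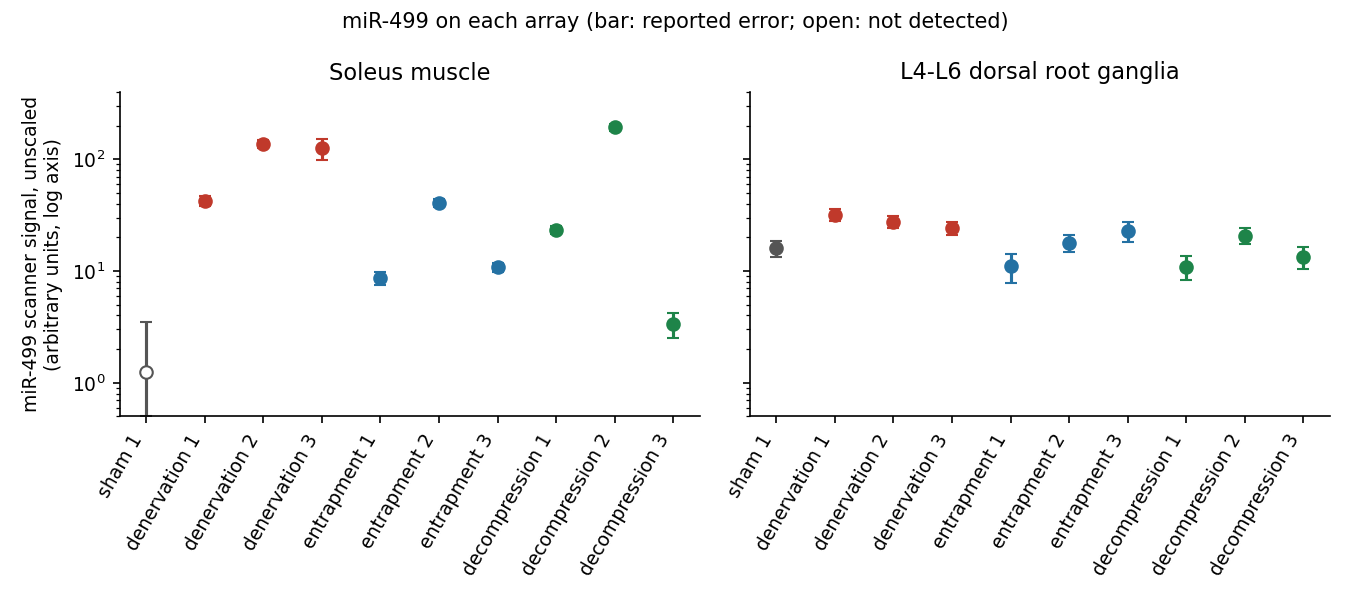
MiR-499 scanner signal on each array in arbitrary units on a log axis, before scaling between arrays, with soleus muscle on the left and L4-L6 DRGs on the right. Points are single arrays coloured by group, bars are the error reported by the scanner software, and the open point is the sham soleus array, where miR-499 was not detected at 1.26. The soleus injury arrays run from 3.36 to 193, while the DRG arrays stay between 10.9 and 31.8.

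The deposited series also holds a table of the authors' processed values for the same arrays, and the miR-499 row of soleus did not carry the pattern of the scanner files. On each array the processed values equalled the scanner signals divided by 1 constant, so that a processed value multiplied by that constant returns the scanner signal. For miR-499 in soleus this held on 3 arrays, sham control and denervation 1 and 2. On the other 7 arrays the 2 sources differed by a factor of 10, within 0.1%. The scanner signal of denervation 3, 126, was 10 times the processed value, which corresponds to 12.6. On all entrapment and decompression arrays the scanner signal was 0.1 times the processed value. The processed values corresponded to 85.8, 407 and 108 in entrapment, where the scanner files held 8.58, 40.7 and 10.8. They corresponded to 235, 1935 and 33.6 in decompression, where the scanner files held 23.5, 193 and 3.36.

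A factor of 10 within 0.1% was found for no other detected miRNA. Of 1539 detected soleus values that could be compared, 23 differed by over 1% between both sources, and the 7 that differed by a factor of 10 within 0.1% were those of miR-499. The other 16 fell on 6 miRNAs, of which miR-1 had 6, with scanner values from 0.102 to 4.41 times the processed ones. In the DRGs, 1 of 2021 detected values differed by over 1%, and it was not miR-499. Which of the 2 sources holds the value first read from the scanned arrays was not tested.

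**Figure D2:**
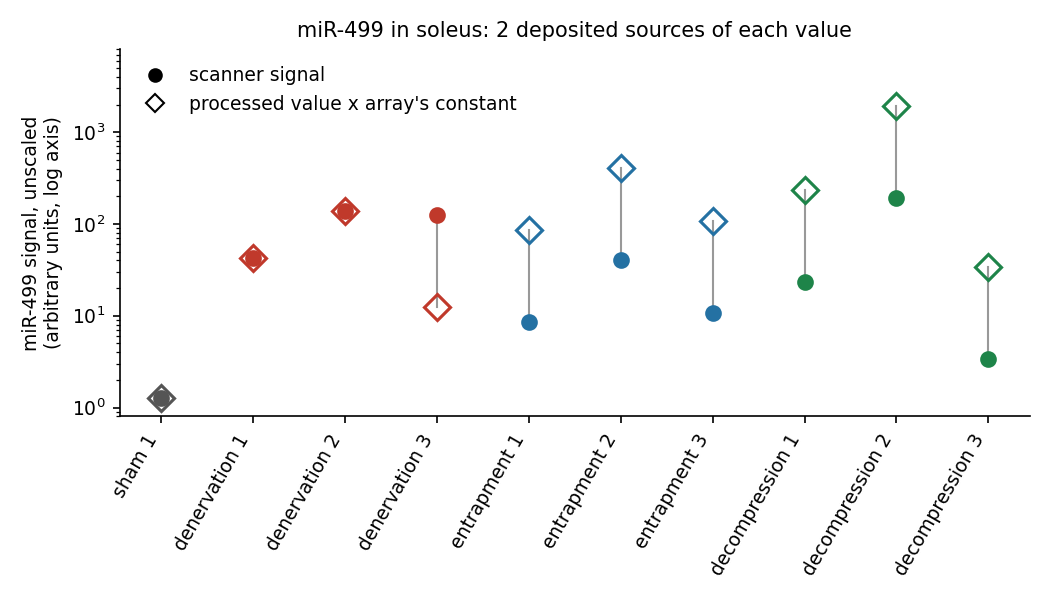
MiR-499 in the 10 soleus arrays from both deposited sources, in arbitrary units on a log axis before scaling. Filled circles are scanner signals, open diamonds are the authors' processed values multiplied by the constant of the array, and grey lines join the pair of an array. Circle and diamond coincide on sham and denervation 1 and 2 and stand apart by a factor of 10 on the other 7 arrays, with the circle on top on denervation 3 alone.

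The same scanner rows hold a reported error for each signal, given here as a description that does not settle which source is right. On an array, miRNAs of like signal carry like errors. The ratio of an error to the median error of miRNAs within 0.5 log2 of the same signal was taken. Over 939 values of other miRNAs on the 7 arrays, each with at least 5 such miRNAs, it was 0.709 to 1.32 in the middle 95%. For miR-499 that ratio was 2.89 on denervation 3, with an error of 26.5 where 6 like miRNAs had 5.84 to 11.3. It was 0.462, 0.728 and 0.392 on entrapment 1, 2 and 3, and 0.600, 1.13 and 0.430 on decompression 1, 2 and 3. Thus 5 of the 7 ratios lay outside that middle 95%. The ratio of decompression 3, counted among them, rests on only 3 like miRNAs, under the minimum of 5 used for the other miRNAs. The error of miR-499 lay outside the whole range of like miRNAs on 5 of the 7 arrays too, and on 4 of them, entrapment 1 and 3 and decompression 1 and 3, it was below the error of every other detected miRNA.

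With signal and error both brought to the level of the processed value, the ratio was 1.02 on denervation 3. It was 1.72, 1.15 and 1.21 on entrapment 1, 2 and 3, and 1.14, 1.11 and 2.36 on decompression 1, 2 and 3. Here 2 of the 7 ratios lay outside the middle 95%, those of entrapment 1 and decompression 3. The error lay outside the whole range of like miRNAs on 1 array, decompression 3, where 8.67 stood against 2.57 to 5.91. On the 12 arrays of both tissues where the sources held equal values and miR-499 was detected, its error lay outside the range on 0. The width of the window was chosen after these values were seen.

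**Figure D3:**
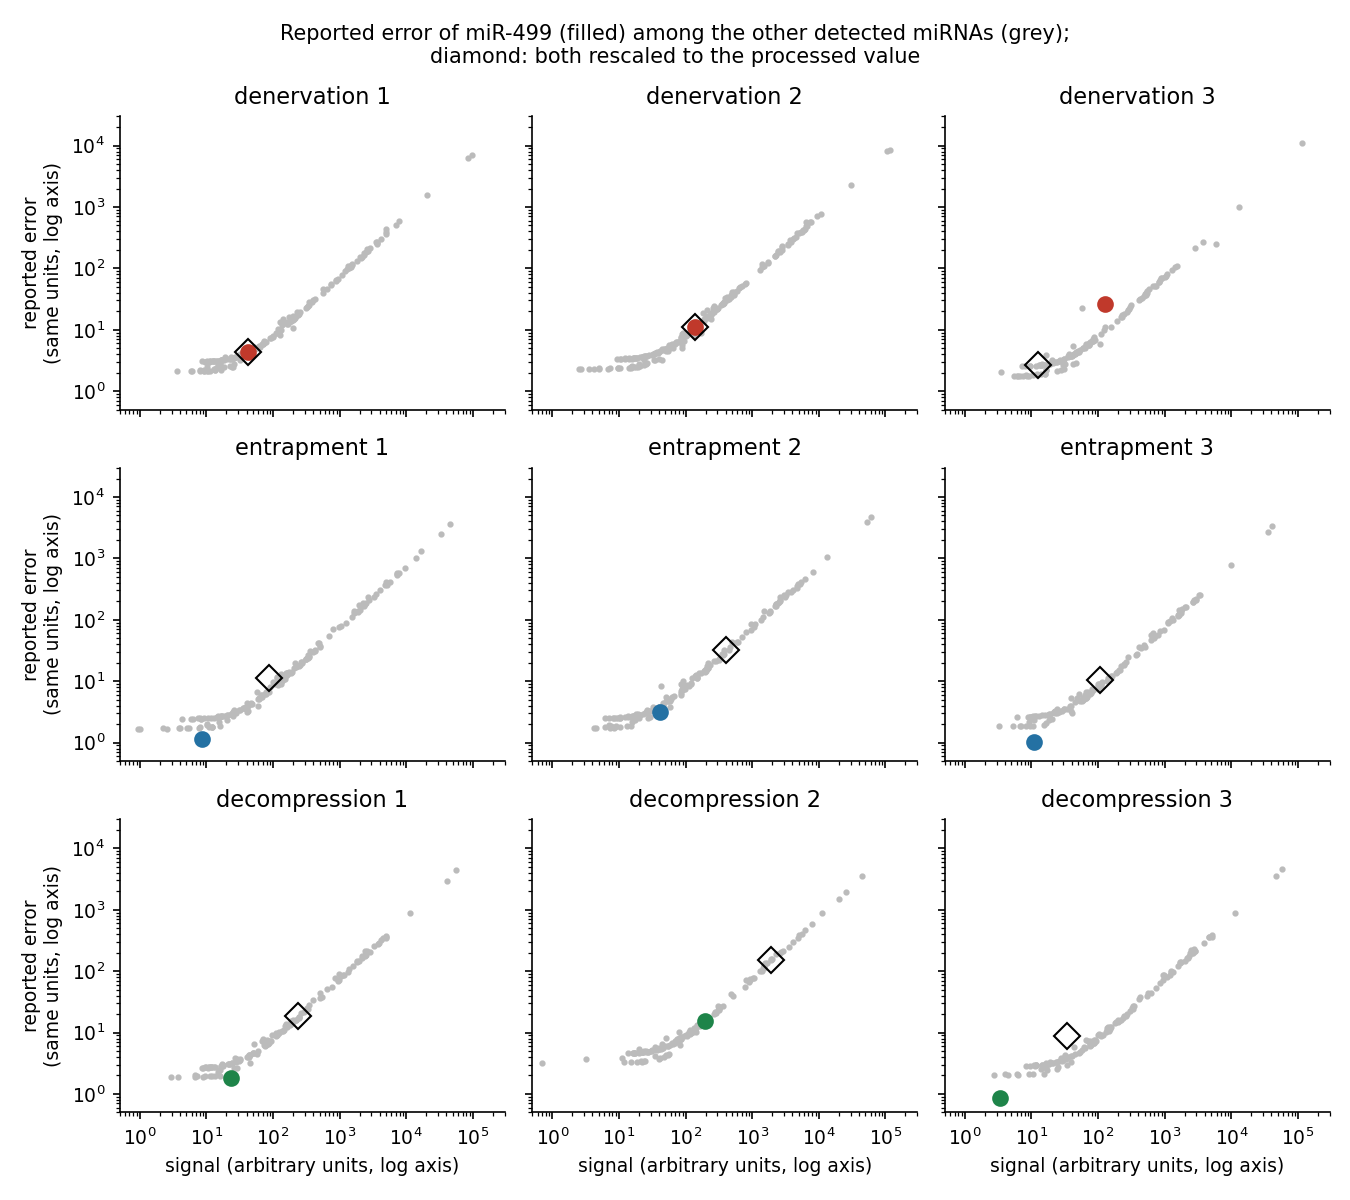
Reported error against signal on the 9 soleus injury arrays, both in arbitrary units on log axes. Grey points are the other detected miRNAs of the array, the filled point is miR-499 as the scanner file holds it, and the open diamond is the same signal and error at the level of the processed value. The filled point leaves the grey band upward on denervation 3, at an error of 26.5, and lies under it on entrapment 1 and 3 and decompression 1 and 3, while the diamond leaves it clearly on decompression 3.

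To compare groups, each array was scaled to the 75th percentile of its signals, the level below which 75% of them lie, and the results below use the scanner values unless the processed ones are named. Scaling mattered in soleus, where that percentile ranged over 6.20-fold between arrays, from 409 to 2539. The scaled sham signal of miR-499 was 3.18, and the weakest miRNA called detected on the sham array stood at 6.43. The scaled denervation signals were 30.8, 56.5 and 315, with a mean of 134 ± 157 (SD, n = 3). Entrapment gave 5.10, 26.6 and 15.2, with a mean of 15.6 ± 10.8. Decompression gave 22.7, 209 and 3.12, with a mean of 78.4 ± 114, and its lowest array fell just under sham. The injury groups overlapped with one another only in part, since every denervation array stood above every entrapment array while decompression reached across both.

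Denervation therefore showed the highest scanner level, 12.7-fold over the sham bound of 6.43, as the geometric mean of 3 arrays. That bound is the level of the weakest detected miRNA on the sham array. It is not an upper limit of miR-499, whose reported error there, 2.23, exceeded its signal of 1.26. The corresponding values were 1.98-fold in entrapment and 3.82-fold in decompression. Single arrays carried much of these values. The level of denervation over the bound was 20.8-fold without array 1 and 6.49-fold without array 3. That of entrapment was 3.13-fold without array 1, and that of decompression was 1.31-fold without array 2 and 10.7-fold without array 3. Under a 2-fold rule applied to each array against sham, miR-499 passed on 3 of 3 denervation arrays, 2 of 3 entrapment arrays and 2 of 3 decompression arrays. The background is that 15.6%, 11% and 13.3% of the 173 miRNAs tested were at least 2-fold higher on all 3 arrays of these groups. The same arrays were at least 2-fold over the bound of 6.43, and entrapment 1 and decompression 3 lay below that bound. In bulk tissue, fewer cells of a type and less miRNA per cell cannot be told apart.

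In the limma fit, which took 173 miRNAs detected on at least 3 soleus arrays and adjusted p-values over all of them, no comparison of miR-499 passed the threshold of 0.05. The sham soleus array gave no detected miR-499. Each fitted difference from soleus sham, also between tissues and with processed values, rests on a signal within its own error and is no measured fold. The folds over the sham bound above compare with a detection level instead. The log2 difference of denervation from sham was 4.69 (SE 2.03, 95% interval 0.11 to 9.27), with an adjusted p of 0.117 and an unadjusted p of 0.0458. In that comparison 26.6% of the miRNAs tested were called, and 39.3% had an unadjusted p under 0.05. Entrapment differed from sham by 2.00 (SE 2.03, adjusted p = 0.499) where 29.5% were called, and decompression by 2.95 (SE 2.03, adjusted p = 0.290) where 31.8% were called. With 1 array left out at a time, the difference of decompression ranged from 1.41 to 4.44, and it passed in no such fit. The medians over all tested miRNAs were -0.07, -0.37 and -0.25. Without decompression 2, the array with the highest scanner signal, the adjusted p of denervation against sham was 0.0476 with the same difference. Without scaling it was 0.00143, at a difference of 4.99, with the median of all miRNAs at 1.32.

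Between injury groups, entrapment differed from denervation by -2.68 (SE 1.43, 95% interval -5.92 to 0.55, adjusted p = 0.279), a comparison in which 11.6% of miRNAs were called. Decompression differed from denervation by -1.74 (SE 1.43, adjusted p = 0.440), with 13.9% called, and from entrapment by 0.95 (SE 1.43, adjusted p = 1.000). In the last comparison limma called 0%, 0 of 173 miRNAs, and 7, or 4.05%, passed at an unadjusted p under 0.05. The intervals are several log2 units wide, so these fits do not show that the groups are alike. The 3 comparisons with sham share its 1 array.

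With the processed values of miR-499 put in place of its scanner values and all other miRNAs kept, denervation moved from the highest to the lowest of the injury groups, and decompression stayed above entrapment. The scaled processed levels were 39.6 ± 14.6 (SD, n = 3) in denervation, 156 ± 108 in entrapment and 784 ± 1138 in decompression. The log2 SD of denervation was 0.50, against 1.74 with the scanner values, and those of entrapment and decompression stayed at 1.21 and 3.04 because all their arrays moved by the same factor. Denervation then differed from sham by 3.58 (adjusted p = 0.177), entrapment by 5.32 (adjusted p = 0.0534) and decompression by 6.27 (adjusted p = 0.0280), so that decompression against sham passed the threshold. Entrapment differed from denervation by 1.74 (adjusted p = 0.452) and decompression differed from it by 2.69 (adjusted p = 0.196), both opposite in sign to the scanner values. All 9 injury arrays were then at least 2-fold over the sham bound. The geometric means were 5.91-fold, 19.8-fold and 38.2-fold over it in denervation, entrapment and decompression. Without array 1, entrapment was 31.3-fold over the bound, and decompression was 13.1-fold over it without array 2 and 107-fold without array 3. On the whole processed table, fitted without rescaling, entrapment (7.51, adjusted p = 0.0246) and decompression (6.99, adjusted p = 0.0137) both passed against sham. The constant of decompression 2 was 1222, against 38.7 to 100 on the other soleus arrays, which lowers all processed values of that array in this fit. The mean of miR-499 lay above sham in each injury group under both sources, while the place of denervation among the injury groups depended on the source.

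**Figure D4:**
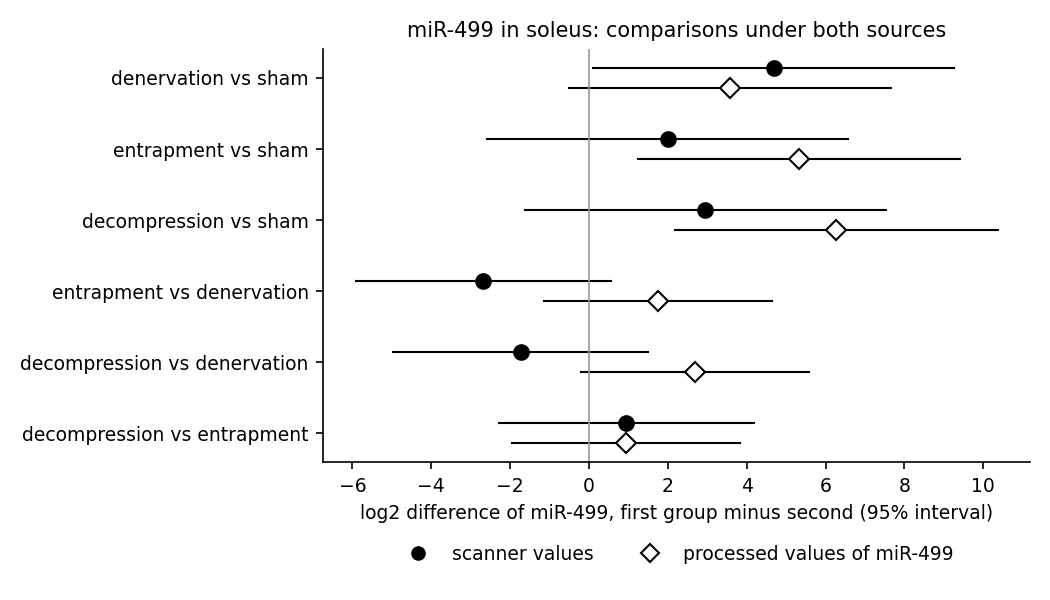
Log2 differences of miR-499 between soleus groups, first named minus second, from limma over 10 arrays, with 95% intervals as lines. Filled circles use the scanner values and open diamonds the processed values of miR-499. All 3 comparisons with sham lie above 0 under both sources, while entrapment against denervation moves from -2.68 to 1.74 and decompression against denervation from -1.74 to 2.69.

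In the DRGs the scaled level of miR-499 was 14.1 in sham, 23.1 ± 2.37 (SD, n = 3) in denervation, 19.1 ± 4.96 in entrapment and 16.6 ± 4.50 in decompression. All denervation arrays, from 20.4 to 24.9, were above sham, and the other groups overlapped with it. The log2 difference from sham was 0.70 in denervation (SE 0.34, 95% interval -0.09 to 1.49, adjusted p = 0.342), where 0.457% of 219 miRNAs were called. It was 0.39 in entrapment (adjusted p = 0.415), with 19.6% called, and 0.20 in decompression (adjusted p = 0.683), with 18.3% called. The last pair depended on the scaling. With the median in place of the 75th percentile, entrapment gave 1.24 (adjusted p = 0.0115) and decompression 1.05 (adjusted p = 0.0230), and the median of all miRNAs then stood at 0.73 in both comparisons, against -0.11 and -0.13 with the 75th percentile. With quantile normalization the values were 1.07 (adjusted p = 0.0219) and 0.94 (adjusted p = 0.0334), and without any scaling decompression gave -0.15.

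The processed table also named the DRG arrays of entrapment and decompression the other way round. Each of its 3 entrapment columns equalled the scanner signals of a decompression file up to 1 constant, and each of its 3 decompression columns equalled those of an entrapment file. The labels of the scanner files were used, except where the whole processed table was fitted under its own column names. Which of both labellings is right was not tested. Since the levels of miR-499 in these groups, 13.4 to 22.8 and 12.6 to 21.5, overlap, exchanging the names leaves both overlapping with sham.

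Over all 20 arrays scaled together, the scanner values did not show miR-499 to be higher in soleus than in the DRGs, nor that both tissues are alike. It ranged from 2.70 to 278 in soleus, with a median of 21.0, and from 15.6 to 28.9 in the DRGs, with a median of 22.4. By geometric mean, soleus denervation came first at 72.7. DRG denervation (24.98), DRG entrapment (22.1), soleus decompression (21.3) and DRG decompression (19.2) followed, and each of these groups overlapped with the one before it. DRG sham (15.6) lay just below the lowest DRG decompression array and within the range of soleus entrapment (10.8), and soleus sham (2.86, not detected) came last, below every soleus entrapment array. The log2 difference of soleus from the DRGs, averaged over groups, was -0.45 (SE 0.70, 95% interval -1.95 to 1.06, adjusted p = 0.559), in a comparison where 81.6% of 234 miRNAs were called and the median miRNA stood at -1.03. The sign of this difference depended on the processing, and on the whole processed table miR-499 was called higher in soleus. It was 1.49 with quantile normalization (adjusted p = 0.0269), 0.94 with the processed values of miR-499 (adjusted p = 0.179) and 0.22 without the sham arrays (adjusted p = 0.754). With only the soleus arrays on which both sources agree it was -0.94 (adjusted p = 0.0101), a choice made after seeing the data. That fit averaged sham and denervation alone. Its soleus sham was not detected, at 2.86 against 15.6 in DRG sham. Its soleus denervation arrays stood at 27.7 and 49.9, against 21.3 to 28.9 in DRG denervation.

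The other striated-muscle miRNAs on the array separated both tissues clearly. These were miR-1, miR-133a and miR-133b, made in heart and skeletal muscle, miR-206, made in skeletal muscle, and miR-208, the heart-type relative of miR-499. On the log2 scale miR-1 was higher in soleus by 9.08 (SE 0.33, adjusted p = 1.03e-12), miR-133a by 7.80 (SE 0.29, adjusted p = 1.26e-12), miR-133b by 7.93 (SE 0.16, adjusted p = 8.80e-16) and miR-206 by 7.51 (SE 0.47, adjusted p = 7.26e-10). Thus 4 of the 5 rose in soleus against the DRGs, and miR-208 was detected on 0 of 20 arrays. Higher values in soleus were called for 18.8% of the miRNAs tested. The neuronal list (miR-124, miR-9, miR-183, miR-182 and miR-96) was detected in full on every DRG array and with at most 1 of 5 on any soleus array, which is the pattern that both tissue labels imply. MiR-1, miR-133a and miR-133b were also called detected on all 10 DRG arrays, and miR-206 on 9 of them, so detection of miR-499 in the DRGs was shared by these muscle miRNAs.

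**Figure D5:**
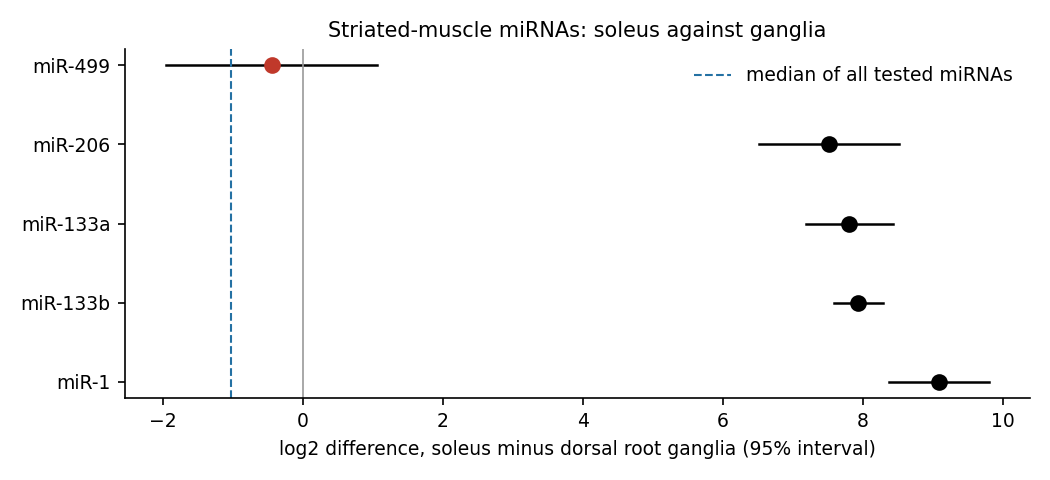
Log2 differences of soleus from DRGs over 20 arrays for the 5 detected striated-muscle miRNAs, with 95% intervals from limma, on scanner values. MiR-499 lies at -0.45 with an interval across 0, while miR-206, miR-133a, miR-133b and miR-1 lie between 7.51 and 9.08. The dashed line is the median of all miRNAs tested, at -1.03.

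The effect of injury on miR-499 was also set between tissues. The difference of denervation from sham was 3.99 larger in soleus than in the DRGs (SE 2.29, adjusted p = 0.270), that of entrapment 1.41 (adjusted p = 0.685) and that of decompression 2.60 (adjusted p = 0.428). In these comparisons 23.5%, 27.4% and 27.4% of miRNAs were called. With the processed values of miR-499 the differences were 2.88 (adjusted p = 0.393), 4.74 (adjusted p = 0.104) and 5.92 (adjusted p = 0.0448).

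Within soleus, the same 4 muscle miRNAs did not move as 1 group against sham. In denervation miR-1 was higher by 3.00 (SE 0.89, adjusted p = 0.0355) and miR-133b lower by 1.99 on the log2 scale (-1.99, SE 0.48, adjusted p = 0.0165), so 1 of the 4 detected members rose and 1 fell, where 11.6% of all tested miRNAs rose and 15% fell. In entrapment 1 of 4 fell, miR-133b at -2.14 (adjusted p = 0.0118), where 19.7% of all fell. In decompression the same member fell, at -1.75 (adjusted p = 0.0249), where 22% of all fell. MiR-133a gave -0.26, -1.91 and -1.57 and miR-206 gave 0.08, 0.61 and 0.82 in denervation, entrapment and decompression, and none of these passed. On the processed values of the whole table the call of miR-1 in denervation was lost (1.27, adjusted p = 0.753), as were those of miR-133b. Both sources differed on the sham signal of miR-1, 4895, which every comparison with sham uses, and on its denervation 3 signal. They also differed on the denervation 3 signal of miR-133a.

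The 5 miRNAs whose scaled scanner levels followed miR-499 most closely over the 10 soleus arrays were miR-207 (Pearson r = 0.89), miR-350 (0.86), miR-672 (0.80), let-7d* (0.79) and miR-505 (0.77), out of 172 compared. The arrays share 1 sham and their scaling, and these values describe these 10 arrays. MiR-1 came in place 8 with 0.64, miR-206 had 0.53, miR-133a 0.32 and miR-133b -0.43. With the processed values of miR-499, the first 5 had 0.37, 0.33, 0.21, 0.09 and 0.29, and miR-23b (0.88), miR-24 (0.85), miR-192 (0.84), miR-126 (0.83) and miR-23a (0.82) came first. None of the first 5 was shared.

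Other features of the arrays moved with the groups in soleus. The summed scaled level of the endothelial pair miR-126 and miR-126* was 362 in sham, with 1 of 2 detected, and 1044 to 1708 on the injury arrays, with both detected. The red-cell pair miR-144 and miR-451 ranged from 196 to 2258 with all groups overlapping the sham level of 1179 except entrapment, at 469 to 810. The 4 leukocyte miRNAs summed to 681 in sham, 471 to 757 in denervation, 340 to 448 in entrapment and 311 to 439 in decompression. Their part in the levels of miR-499 was not tested. In each tissue the 4 arrays of sham and denervation were set against the 6 arrays of entrapment and decompression. Of 45 control features, 12 in soleus and 24 in the DRGs had no overlap between these sets. How many would have none under another split of the arrays was not counted. MiR-499 overlapped between them in both tissues, and the share of all miRNAs without overlap was not counted. Comparisons of entrapment or decompression with sham or denervation cross this split, so injury and a technical difference cannot be told apart in them. The scanner files of sham and denervation 1 and 2 in soleus lacked a header line that the other 17 files have. In soleus these are the arrays on which both sources of miR-499 agree. All 10 DRG files have the line, and both sources agree on them. Whether the layout of the files is tied to the difference between sources was not tested. Without denervation 1 and 2, the difference of denervation from sham was 6.63, from the 1 remaining array, whose spread is assumed to be that of the other groups. That array is denervation 3, whose scanner signal of miR-499 was 10 times its processed value.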

How the data were processed

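RNA from soleus and L4-L6 DRGs was labelled with Cy3 and hybridised to Agilent rat miRNA arrays, 1 sample per array. Per the labels, the authors read the arrays with Agilent Feature Extraction 9.5.3, and the deposited scanner files hold a total signal intensity per miRNA, its error and a detection flag. The deposited processed values are an intensity ratio to 1 constant per array, set by the authors. The methods of the study name a rank-consistency LOWESS normalization and GeneSpring GX; how the constants were set is not given in the sources used here. Their unit and order were checked against the scanner signals above 20, with equality within 1%.

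Scanner signals of 348 miRNAs were scaled to the 75th percentile of their array. It was taken over those detected throughout (108 in soleus, 102 over both tissues), or over all 348 in the DRGs. Values under a floor, 2.71 in soleus, 2.31 in the DRGs and 2.43 over both, were set to it before taking log2. For the floor, the weakest detected miRNA of each array was found after scaling and the median of these was used. MiRNAs detected on at least 3 arrays were tested with limma 3.58.1 in R 4.3.3, all groups of a tissue (or of both) in 1 fit, with Benjamini-Hochberg adjustment over all tested and a threshold of 0.05. The fit was tested on simulated data. Between 134 and 194 miRNAs were detected per soleus array and 183 to 233 per DRG array; arrays give no read depth, and their number limits the precision. Named miRNAs were miR-499, 5 other striated-muscle miRNAs and the 5 with the highest Pearson r to miR-499 over soleus arrays. The member, the lists and the tests were chosen with earlier results of these data known. Alternatives were other scalings, floors, filters, sources and sets of arrays.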

Additional observations from a re-analysis of the deposited data

How the results depend on the processing

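Changes of direction or call fell mainly on the source of the values and the scaling. On the authors' processed values of all miRNAs, miR-499 in soleus gave 7.51 for entrapment against sham (adjusted p = 0.0246), 6.99 for decompression against sham (adjusted p = 0.0137), 2.00 for entrapment against denervation, 1.47 for decompression against denervation, -0.52 for decompression against entrapment, 1.30 for soleus against DRGs (adjusted p = 0.0402) and 7.27 for the tissue difference of entrapment (adjusted p = 0.0235). On those values the median miRNA of the first 2 comparisons stood at 1.67 and 0.41. With only the miR-499 values exchanged, the same order gave 6.27 for decompression against sham, 1.74 and 2.69 against denervation, 0.94 between tissues and 5.92 for the tissue difference of decompression. The cause was not tested.

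Without scaling, denervation against sham passed at 4.99 (adjusted p = 0.00143), with the median miRNA at 1.32, and DRG decompression gave -0.15. Median scaling gave 1.24 and 1.05, and quantile normalization 1.07 and 0.94, for DRG entrapment and decompression. Calls higher and lower in DRG entrapment moved from 5 and 38 to 127 and 14 under median scaling and 44 and 22 under quantile normalization. The difference between tissues was 0.032 with the median, 1.49 with quantile normalization, 0.38 with loess, 0.35 with the other percentile set, 0.14 with a pseudocount of 16 and 0.22 without sham. It was -0.94 without the 7 arrays whose values differ, which averages sham and denervation alone.

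Leaving out 1 array at a time, denervation against sham ranged from 3.71 to 5.39 (adjusted p 0.0476 to 0.209), decompression against entrapment from -0.60 to 2.44 and DRG decompression from -0.0074 to 0.38, each changing without decompression 2. Over the other alternatives, DRG denervation stayed between 0.37 and 0.92 and passed in none. Fits on only the groups compared passed for none of the comparisons of miR-499.

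Between tissues, deviations correlated at -0.22 to 0.27 for equal replicate numbers and -0.38 to 0.35 for others, so pairing by rat stays unknown. With the replicate number as a block, denervation against sham in soleus was 3.74 (adjusted p = 0.275), DRG decompression was -0.061 and miR-206 in denervation -0.044, and no call of miR-499 changed. The block lowered calls in soleus denervation against sham from 20 higher and 26 lower to 10 and 14.

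For the other muscle miRNAs in soleus against sham, miR-133a in denervation gave 1.22 without scaling, 0.12 with quantile normalization, 0.031 with the other percentile set, 1.18 on the processed values and 1.25 without denervation 1 and 2. On the processed values entrapment gave -0.32 for miR-1, 0.28 for miR-133a and 0.049 for miR-133b, and decompression -2.01 for miR-1. With 1 array left out at a time, miR-133a in denervation ranged from -1.02 to 0.24, miR-206 in denervation from -0.58 to 0.46 and miR-206 in decompression from -0.078 to 1.503. Signals near the floor limit the sham soleus value, and its bound is a detection level.

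Over all miRNAs tested, the number of calls moved with the processing as well. Against sham in soleus it ranged over the alternatives from 1 to 54 in denervation, 2 to 71 in entrapment and 5 to 72 in decompression, where the reported fits called 46, 51 and 55, and the lowest counts came on the processed values. It ranged from 0 to 39 (reported 20) and 2 to 43 (reported 24) for entrapment and decompression against denervation, with the lowest counts without scaling and the highest without denervation 3. In the DRGs it ranged from 1 to 16, 19 to 141 and 18 to 148, where 1, 43 and 40 were reported. Restricting the fit to miRNAs detected on every array gave no value for miR-499 in soleus or between tissues, since it was not detected on the sham soleus array.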
